A study of Mus musculus with 19 samples.

Results

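C2C12 cells, an established line of mouse myoblasts (muscle precursor cells), were profiled after 12 h in 100 nM thapsigargin, the longest exposure in a set of 19 libraries of polyadenylated RNA. The 4 libraries of that hour were picked by their labels, 2 from thapsigargin and 2 from the vehicle DMSO, which the labels also give at 100 nM. All cells were labelled wild type and came from this single line. The other 15 libraries comprise drug and vehicle at 2 h and at 6 h, with 3 libraries per group, and 3 libraries from cells that spent 6 h in drug followed by 48 h in medium without it. The series title places the study in the integrated stress response (ISR) and in the joint action of the transcription factors ATF4 and CEBPG. Nothing in the labels shows that replicates came from separate cultures, so the p-values may measure technical spread alone.

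Thapsigargin blocks SERCA, the pump that loads calcium into the endoplasmic reticulum (ER), and the calcium store runs down. Chaperones of the ER need calcium, so unfolded proteins accumulate and activate the sensors PERK (Eif2ak3), IRE1 (Ern1) and ATF6. PERK phosphorylates the initiation factor eIF2, which slows general translation while ATF4 is made, and ATF4 with CEBP partners switches on genes of amino acid supply and stress feedback. ATF6 and spliced XBP1 act on chaperone genes.

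The libraries at 12 h held 17.3 to 21.8 M (mega) reads in genes, against 23.6 to 41.0 in the other 15, and mitochondrially encoded RNA took 2.23% to 3.07% of them. All 10 myoblast markers of the list were detected in both groups, with a summed level of 5817 and 5868 counts per megaread (CPM) in DMSO and 2492 and 2737 in thapsigargin. Vim alone gave 4370 and 4450 CPM of these sums in DMSO and 1309 and 1429 in thapsigargin. By the test described below, 4 of the 10 were lower, 1 was higher and 5 did not pass. Epcam (epithelium), Emcn (endothelium), Adgre1 and Itgam (macrophages), and Adipoq and Plin1 (adipocytes) had no count in any of the 4 libraries. Other members of the epithelial, macrophage and adipocyte lists were present. Over the 4 libraries Krt19 (epithelium) lay between 9.68 and 17.99 CPM and Cd14 (macrophages) between 19.88 and 29.31. Of the adipocyte list, Pparg lay between 10.7 and 13.4 CPM and Lpl between 34.8 and 121.5. Across 10194 genes that averaged 5 CPM or more, the median absolute log2 difference was 0.06 between the DMSO libraries, 0.14 between the thapsigargin libraries and 0.38 between the group means.

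After 12 h the drug had changed a large part of the transcriptome in both directions. Of 18039 genes tested, 2356 passed at an adjusted p under 0.05 (13.1%), with 1134 higher in thapsigargin (6.29%) and 1222 lower (6.77%). At least 4-fold changes were reached by 652 of the higher genes and 395 of the lower genes, and the smallest change that passed was 1.47-fold. The levels of the groups did not overlap for any gene that passed, but the same held for 13192 of all genes tested (73.1%). The test took its spread from all 19 libraries, whose biological coefficient of variation (0.352) exceeded that of the 4 libraries at 12 h (0.0612). Fitted alone, those 4 libraries gave 8847 calls among 14230 genes (62.2%), which held all 2211 of the calls tested in both fits. Without any 1 of the 4 libraries, 1124 to 1211 genes passed. Values below are normalised CPM per library in replicate order, followed by the fitted log2 difference with its standard error (SE), and gene lists are described beside a median log2 difference of 0.014 over all genes. In bulk RNA, fewer cells of a kind and less RNA per cell cannot be told apart.

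The ISR was still high at 12 h, from its transcription factors to its feedback genes. On the ISR list 14 of 18 genes rose and none fell, with a median log2 difference of 2.06, and 11 to 13 rose without any 1 library. In the vehicle libraries Atf4, the factor at the head of the response, stood at 324 and 356 CPM, and in thapsigargin at 983 and 1060 (log2 1.59 ± 0.28, adjusted p = 0.001). Its dimer partner Cebpg stood at 37.5 and 39.8 against 111 and 95.4 CPM (1.42 ± 0.25, adjusted p = 0.001). For each of them both drug libraries were high and the groups did not overlap. Cebpb, another partner, was measured at 60.4 and 56.7 against 92.6 and 112 CPM and did not pass (0.80 ± 0.51, adjusted p = 0.38). The related factor Atf5 also rose (0.995 ± 0.25, adjusted p = 0.015), a call lost when any 1 library at 12 h was left out (adjusted p of 0.053 to 0.14) and under scaling by total counts (0.14).

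Effector factors and feedback genes downstream of Atf4 rose too. Atf3, a stress-induced repressor, went from 9.04 and 8.99 CPM to 172 and 161 (log2 4.21 ± 0.44, adjusted p = 8.8e-06). Ddit3, which encodes the pro-apoptotic factor CHOP, went from 14.4 and 14.3 to 216 and 246 CPM (4.01 ± 0.89, adjusted p = 0.0059). Both genes showed low, nearly equal vehicle libraries and no overlap, but the call for Ddit3 ended without DMSO replicate 1 (adjusted p = 0.074) or 2 (0.072). Trib3, a pseudokinase that restrains ATF4, was 11.4 and 12.5 CPM in DMSO and 265 and 293 in drug (4.55 ± 0.38, adjusted p = 1.1e-06). Ppp1r15a, the subunit GADD34 that directs phosphatase to eIF2, was 22.9 and 23.8 against 423 and 449 CPM (4.22 ± 0.47, adjusted p = 1.6e-05). Chac1, which degrades glutathione, was 17.8 and 23.6 against 280 and 323 CPM (3.86 ± 0.42, adjusted p = 1.3e-05). These feedback genes thus stood 14.5-fold (Chac1) to 23.4-fold (Trib3) above vehicle, and in each the lower drug library lay far above the higher vehicle library.

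Secreted and metabolic outputs of the response were raised as well. The hormone gene Fgf21 had 4 counts over both DMSO libraries (0.0811 and 0.0922 CPM) and reached 18.8 and 23.0 CPM in drug (log2 7.85 ± 0.58, adjusted p = 4.1e-07). Gdf15, another stress hormone, went from 24.3 and 27.4 to 83.3 and 98.1 CPM (1.81 ± 0.31, adjusted p = 0.00087). Sesn2, an inhibitor of the growth kinase mTORC1, went from 23.7 and 27.0 to 119 and 134 CPM (2.32 ± 0.21, adjusted p = 1.9e-06). Vldlr, a lipoprotein receptor, had 2 counts in DMSO and 76 in drug, a ratio of 42.7 with a 95% counting interval of 11.4 to 359. The 4 members of the list that did not pass were Cebpb, Jdp2 (0.23 ± 0.34), Eif4ebp1 (1.48 ± 0.61) and Ddit4 (1.21 ± 0.54). Tnfrsf10b, a death receptor gene under CHOP, was 32.4 and 33.4 against 57.1 and 56.6 CPM (0.79 ± 0.24, adjusted p = 0.036), and its call was lost whichever library was left out (0.15 to 0.22).

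ATF4 and CEBP dimers bind the CEBP-ATF response element (CARE), searched here on both strands as TGATGNAA in the RefSeq promoter table (GRCm38.p6, from 250 bases before to 50 after each start). The motif was present in 7 of 17 ISR list genes with a promoter entry and in 5 of 12 cytosolic tRNA synthetases, against 3.01% of the 11786 tested genes with an entry and 3.97% of all 32851 promoters. It stood in 6.08% of 822 genes that rose and in 2.16% of 878 that fell. Of the 47 genes of the panel and the largest changes, 36 matched the table and 9 of those held it. The windows of 60 bases below, written along each gene's own strand with the motif or its reverse complement in capitals, belong to panel genes whose match lay before the start, 4 of the ISR list and 2 of amino acid supply. They lie at chr1:191183410-191183469 (- strand) for Atf3, chr2:119351023-119351082 (+) for Chac1, chr7:45615596-45615655 (-) for Fgf21, chr19:27216794-27216853 (+) for Vldlr, chr6:7693210-7693269 (-) for Asns and chr3:50443646-50443705 (-) for Slc7a11.
Atf3: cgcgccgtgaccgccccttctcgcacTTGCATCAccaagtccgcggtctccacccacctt
Chac1: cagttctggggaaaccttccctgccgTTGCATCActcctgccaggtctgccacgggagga
Fgf21: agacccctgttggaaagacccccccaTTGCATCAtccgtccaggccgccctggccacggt
Vldlr: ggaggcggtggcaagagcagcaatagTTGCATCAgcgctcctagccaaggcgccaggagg
Asns: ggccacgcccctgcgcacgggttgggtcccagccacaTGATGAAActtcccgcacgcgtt
Slc7a11: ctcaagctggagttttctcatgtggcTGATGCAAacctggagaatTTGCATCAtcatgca
Slc7a11 carried the motif on both strands of this window. A match describes these letters only and shows no binding.

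**Figure D1:**
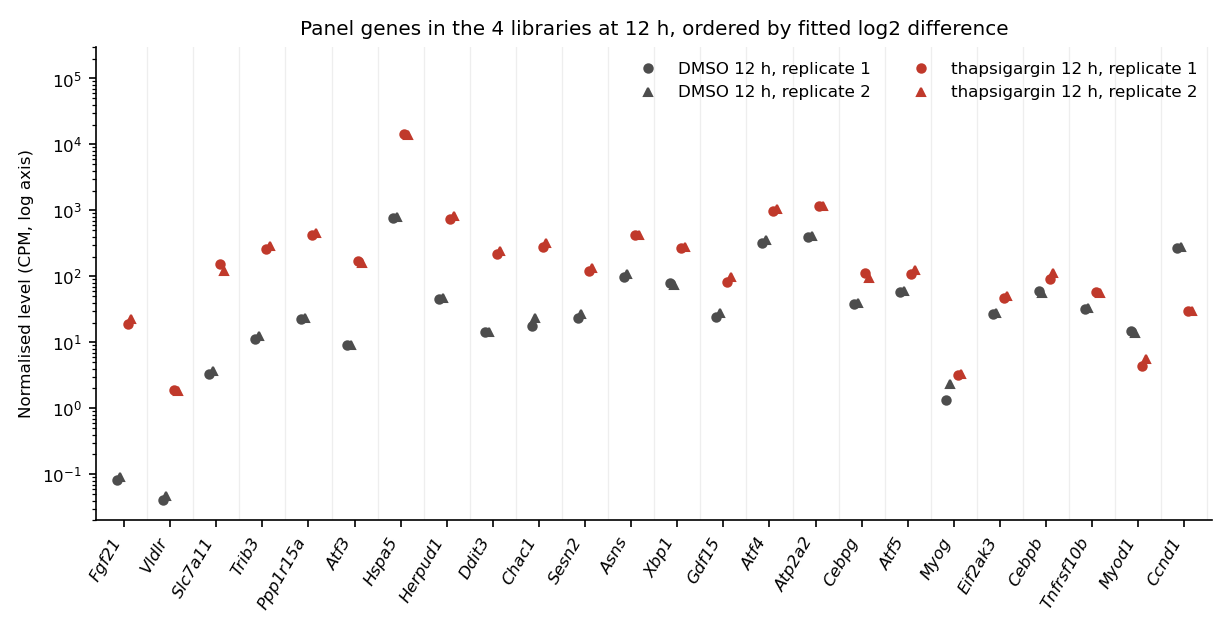
Normalised level (CPM, log axis) of the 24 panel genes in each of the 4 libraries at 12 h, DMSO in grey and thapsigargin in red, ordered by fitted log2 difference. Hspa5 reaches 14441 and 13757 CPM in drug, Fgf21 and Vldlr rise from below 0.1 CPM, and Myod1 and Ccnd1 are the panel genes that fell.

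Most of the folding machinery of the ER rose. Of 22 ER chaperones and folding enzymes 16 rose and none fell (median log2 1.91), with 14 or 15 rising without any 1 library. Hspa5, the calcium-dependent chaperone BiP that also restrains the ER sensors, stood at 776 and 793 CPM in DMSO and at 14441 and 13757 in drug (4.17 ± 0.46, adjusted p = 1.5e-05), 18.0-fold higher. It took 580944 reads in the drug libraries and 36338 in the vehicle libraries. Sdf2l1, a cofactor of BiP, rose from 18.16 and 20.02 to 279 and 343 CPM (4.02 ± 0.39) and Hyou1, its nucleotide exchange factor, from 163 and 174 to 2020 and 2132 (3.62 ± 0.29). No gene of this list was lower on average, and the 6 that did not pass lay between 0.20 and 1.54, among them the lectin chaperone Canx (1.07 ± 0.41).

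Disposal and entry routes of the ER followed in part. Of 18 genes of ER-associated degradation 8 rose and none fell (median 1.28), and 8 rose whichever library was left out. Herpud1, a membrane scaffold of the pathway, went from 44.8 and 46.4 to 733 and 815 CPM (4.09 ± 0.40, adjusted p = 5.1e-06), and the co-chaperone Dnajb9 from 13.7 and 13.2 to 209 and 188 (3.88 ± 0.62, adjusted p = 0.00046). Sel1l, the adaptor of the ubiquitin ligase HRD1, rose by 2.94 ± 0.39 (adjusted p = 8.2e-05). Of 25 genes of translocation and COPII transport 7 rose (median 0.92): the signal peptidase subunits Spcs2 (1.59 ± 0.30), Sec11c (1.53 ± 0.24) and Sec11a (1.23), the signal recognition particle receptor subunit Srprb (1.53 ± 0.20), and Ssr4, Ssr2 and Ssr1 of the translocon-associated complex (0.92 to 1.21). Sec11a and the Ssr genes were picked for mention after their values were seen. Of the 25, 3 to 5 rose without any 1 library, 11 by DESeq2 and 22 in the fit of the 4 libraries alone. Among 11 sensors and eIF2 kinases, Xbp1 rose by 1.82 ± 0.36 (adjusted p = 0.0024) and Atf6 by 1.45 ± 0.44 (adjusted p = 0.038, and 0.13 to 0.23 without any 1 library). Eif2ak3, encoding PERK, was 26.8 and 28.3 against 46.6 and 49.8 CPM and did not pass (0.81 ± 0.67, adjusted p = 0.56), nor did Ern1 (1.23 ± 0.42, adjusted p = 0.0649).

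ATF6 and XBP1 act through the ER stress response element (ERSE), searched as CCAAT and CCACG with 9 bases of any kind between them, and through another form, ERSE-II, searched as ATTGG, any base and CCACG. On both strands of the same promoter table, ERSE stood in 7 of 17 ER chaperone genes with an entry, against 0.178% of tested genes and 0.119% of all promoters, and in 10 of the 822 genes that rose and none of the 878 that fell. ERSE-II stood in 0.0933% of tested genes. The windows shown are those of the panel genes of this pathway, Hspa5 at chr2:34772005-34772064 (+ strand) and Herpud1 at chr8:94386353-94386412 (+), with ERSE and ERSE-II in capitals.
Hspa5: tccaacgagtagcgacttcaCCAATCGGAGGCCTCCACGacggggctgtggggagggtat
Herpud1: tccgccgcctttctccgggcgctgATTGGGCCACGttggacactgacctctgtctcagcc
Herpud1 also held CARE, at -112 to -105 from its start, so that motifs of both arms of the response stood in its promoter.

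Amino acid supply rose on 3 levels, synthesis, import and charging of tRNA. Of 16 synthesis genes 10 rose and none fell (median 1.504). Asns, asparagine synthetase, went from 98.8 and 109 to 431 and 424 CPM (2.04 ± 0.22, adjusted p = 1.5e-05). Cth, which makes cysteine from cystathionine, rose from 7.09 and 7.38 to 148 and 144 CPM (4.33 ± 0.66), the mitochondrial folate enzyme Aldh1l2 from 52.9 and 53.1 to 1046 and 995 (4.27 ± 0.50), and the proline enzyme Pycr1 from 6.36 and 6.92 to 57.9 and 64.9 (3.21 ± 0.24). In all 4 the drug libraries were close to each other and far from vehicle. Psat1 (0.60 ± 0.31) and Phgdh (1.14 ± 0.44) of serine synthesis did not pass. Of 12 amino acid transporters 8 rose (median 1.69), with 4 to 7 rising without any 1 library and 5 under scaling by total counts. Slc7a11, the cystine importer, went from 3.32 and 3.74 to 153 and 120 CPM (5.27 ± 0.48, adjusted p = 2.5e-06), and its heavy chain Slc3a2 from 106 and 112 to 2288 and 2593 (4.49 ± 0.39). The glycine transporter Slc6a9 rose by 3.77 ± 0.96, but not without DMSO replicate 1 (adjusted p = 0.13), DMSO replicate 2 (0.14) or thapsigargin replicate 2 (0.058).

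Of the 20 cytosolic tRNA synthetases 8 rose and none fell (median 1.07), with 5 to 8 rising without any 1 library. Wars, for tryptophan, stood at 84.3 and 84.5 CPM in vehicle and at 455 and 483 in drug (2.47 ± 0.52), Lars at 188 and 201 against 665 and 618 (1.72 ± 0.37), and Gars at 243 and 261 against 755 and 757 (1.59 ± 0.24). The calls for Wars and Lars ended without DMSO replicate 1 (adjusted p = 0.051 and 0.061). The mitochondrial synthetases, encoded by separate genes, gave 1 call in 17, Wars2 (0.84 ± 0.25), lost with any 1 library left out (0.11 to 0.21). That 1 call made 5.88% of the mitochondrial list, near the 6.29% higher among all genes tested. Whether the cytosolic and mitochondrial lists differ was not tested. Of 13 mitochondrial chaperones and proteases 3 rose: Lonp1, the matrix protease, from 155 and 154 to 627 and 709 CPM (2.11 ± 0.22), Dnaja3 (1.27 ± 0.26, adjusted p = 0.10 under scaling by total counts) and Hspa9 (1.06 ± 0.34, lost without any 1 library, adjusted p of 0.16 to 0.27).

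The target family of the drug was itself altered. Atp2a2, encoding SERCA2, went from 398 and 403 to 1159 and 1148 CPM (log2 1.53 ± 0.33, adjusted p = 0.0048). Each drug library lay near the other and above both vehicle libraries, but the call ended without DMSO replicate 1 (adjusted p = 0.066) or 2 (0.062). Atp2a3, encoding SERCA3, was close to absent in DMSO at 0.324 and 0.185 CPM and reached 48.0 and 52.0 in drug (7.58 ± 0.55, adjusted p = 3e-07). The plasma membrane pump Atp2b4 fell from 40.4 and 39.9 to 6.47 and 6.52 CPM (-2.63 ± 0.26, adjusted p = 5.3e-06), and Stim2, a sensor of ER calcium, from 62.6 and 64.1 to 18.5 and 16.5 (-1.86 ± 0.40). Atp2b2, another plasma membrane pump, had no count in DMSO and 26 in drug, at least 4.81-fold higher. In the calcium list of 21 genes, 4 rose and 3 fell (1 to 4 and 1 or 2 without any 1 library), the remaining calls being Orai2 (0.71 ± 0.18, chosen after its value was seen) and the release channel Itpr3 (-0.79 ± 0.20). The call for Stim2 ended without thapsigargin replicate 2 (0.068), that for Itpr3 without any 1 library (0.062 to 0.17), and that for Atp2b2 without DMSO replicate 1 (0.095), DMSO replicate 2 (0.083) or thapsigargin replicate 2 (0.065).

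Rises were ranked among genes that passed and averaged 5 CPM or more, clone names and pseudogenes aside. The largest by log2 difference belonged to genes with little or no RNA in vehicle. A ranking by ratio favours such genes, so their low vehicle levels follow in part from the choice. H2-M10.1, a class Ib histocompatibility gene with close relatives that could share reads, had no count in DMSO and 56.3 and 58.2 CPM in drug, at least 440.3-fold above a floor of 3 counts per library. Sspo, which encodes the secreted giant SCO-spondin, had none in DMSO and 39.3 and 46.8 CPM in drug, at least 331-fold higher. Car6, a secreted carbonic anhydrase, went from 0.122 and 0.0461 to 162 and 164 CPM (log2 10.83 ± 0.71, adjusted p = 1.6e-07). Each of these genes was near 0 in both vehicle libraries and above 39 CPM in both drug libraries. Acox2, a peroxisomal oxidase of branched lipids and bile acid precursors, had 1 count in DMSO and 995 in drug (ratio 1118, interval 200.2 to 44200). For Lcn2, a siderophore-binding protein, the counts were 2 and 836 (ratio 470, 130 to 3884), and for Otog, known from the inner ear, 2 and 436 (245, 67.4 to 2029). The 12 genes with the largest rises also held Fgf21, Atp2a3, Dyrk4 (a protein kinase, 7.18 ± 0.66), Tfcp2l1 (a transcription factor, 7.17 ± 0.87) and Extl1 (of the exostosin family, 6.53 ± 0.67). In all, 185 of the 1134 higher genes had no count in DMSO, a number not set here against the share among all genes tested. A library at 12 h needs 3 counts to reach 0.13 CPM in DMSO and 0.146 in drug.

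Avil, encoding the actin-binding protein advillin, completed that set, at 0.811 and 1.61 CPM in vehicle and 199 and 206 in drug (log2 7.39 ± 0.36, adjusted p = 8.1e-09). All 12 of these genes matched the promoter table, and Avil and Fgf21 held CARE. The window of Avil, shown because no other gene of the set outside the ISR list held the motif, lies directly before its start at chr10:127000649-127000708 (+ strand), with CARE in capitals.
Avil: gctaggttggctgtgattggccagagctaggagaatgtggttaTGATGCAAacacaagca

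**Figure D2:**
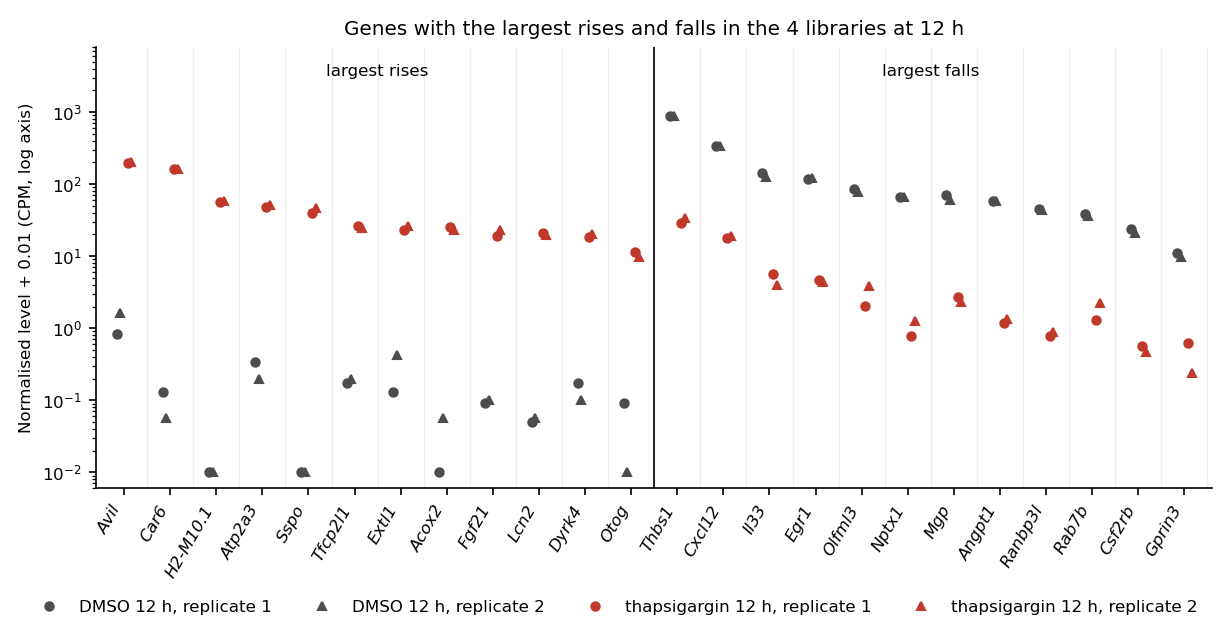
Normalised level plus 0.01 (CPM, log axis) in the 4 libraries at 12 h for the 12 genes with the largest rises and the 12 with the largest falls, DMSO in grey and thapsigargin in red. They were picked among genes that passed and averaged 5 CPM or more, clone names and pseudogenes aside. Points at the bottom mark libraries with no count, as for H2-M10.1 and Sspo in DMSO, and Thbs1 falls from 894 and 873 to 28.5 and 34.0 CPM.

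Other transcription factor and signalling groups moved in part. In a list of 30 bZIP factors (CEBP, ATF and relatives) 10 were raised and 1 fell (median 0.69), with 6 or 7 raised without any 1 library. Besides the ISR factors, Cebpd rose from 11.5 and 9.78 to 57.7 and 68.4 CPM (2.57 ± 0.48, adjusted p = 0.0015), while Cebpa, known from adipocyte and liver differentiation, fell from 15.5 and 16.2 to 1.73 and 3.01 (-2.74 ± 0.35, adjusted p = 6.5e-05). Among 23 genes of NF-kB signalling and cytokines 7 rose and 1 fell, with 3 to 5 rising without any 1 library. The cytokine Il6 went from 1.10 and 0.876 to 20.03 and 15.03 CPM (4.14 ± 0.52), and Ptgs2, which makes prostaglandin precursors, from 39.5 and 43.8 to 665 and 603 (3.93 ± 0.67). The adhesion gene Icam1 had 2 counts in DMSO and 43 in drug (ratio 24.2, 6.29 to 206, lost without any 1 library at 0.11 to 0.30). Il33, an alarmin, fell from 142 and 124 to 5.56 and 4.02 CPM (-4.80 ± 0.42, adjusted p = 1.5e-06). Of 20 interferon-stimulated genes 4 rose (2 or 3 without any 1 library): Isg20 (2.66 ± 0.40), Oasl1 (2.29 ± 0.45), Isg15 (2.02 ± 0.48, chosen after its value was seen) and Mx2 (3.39 ± 0.79, lost without DMSO replicate 1 at 0.10, DMSO replicate 2 at 0.095 or thapsigargin replicate 1 at 0.056).

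Oxidative stress and turnover genes gave calls in part. The share higher was 14.3% of NRF2 targets and 36.4% of small nucleolar RNA host transcripts, against 6.29% of all genes tested. Autophagy and lysosome genes lay near the shares of all genes, with 7.41% higher and 3.7% lower against 6.29% and 6.77%. Of 21 NRF2 targets 3 rose: the haem oxygenase gene Hmox1 from 68.5 and 82.7 to 853 and 947 CPM (3.57 ± 0.46), the glutathione transferase gene Gsta4 from 34.4 and 32.1 to 255 and 257 (2.94 ± 0.37), and Srxn1 (1.19 ± 0.22, adjusted p = 0.055 under scaling by total counts). Nqo1, a defining target, was 20.3 and 20.8 against 24.2 and 18.8 CPM and overlapped between groups (0.06 ± 0.24, adjusted p = 0.94). Of 27 autophagy and lysosome genes Sqstm1 (1.91 ± 0.28), the cargo receptor p62, and Atg13 (1.70 ± 0.18) rose, and the lysosomal regulator Tfeb fell (-1.799 ± 0.39, adjusted p = 0.0053, and 0.069 without thapsigargin replicate 1). Of 11 small nucleolar RNA host transcripts, which nonsense-mediated decay normally keeps low, 4 rose (median 1.22): Snhg12 from 10.5 and 11.4 to 70.8 and 77.8 CPM (2.76 ± 0.62), Gas5 (1.99 ± 0.41), Snhg1 (1.58 ± 0.50) and Snhg5 (1.05 ± 0.33, chosen after its value was seen). Without any 1 library, 0 to 2 of these rose, the call for Snhg12 ending without DMSO replicate 1 (0.077) or 2 (0.064) that for Gas5 without DMSO replicate 1 (0.053), and that for Snhg1 whichever library was left out (0.14 to 0.24), with DESeq2 size factors (0.056) and with the replicate block (0.079).

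Genes of the cell cycle were lower from G1/S entry to mitosis. Of 24 genes of mitosis and cytokinesis 19 fell and none rose (median log2 -1.32), and the 5 that did not pass lay between -1.50 and -1.16. Ttk, a checkpoint kinase, went from 76.5 and 79.1 to 25.1 and 22.8 CPM (-1.70 ± 0.30, adjusted p = 0.0011), Birc5, encoding survivin, from 128 and 133 to 42.7 and 41.4 (-1.63 ± 0.28, adjusted p = 0.00071), and the kinase Plk1 from 116 and 115 to 38.8 and 43.9 (-1.49 ± 0.27, adjusted p = 0.0014). Each fell to about the same level in both drug libraries. Of 26 DNA replication genes 16 fell and none rose (median -1.17). Uhrf1, which maintains DNA methylation at the fork, went from 272 and 282 to 78.4 and 83.3 CPM (-1.77 ± 0.34), Rrm2, the ribonucleotide reductase subunit, from 440 and 459 to 150 and 154 (-1.57 ± 0.36), and Mcm5 of the replicative helicase from 187 and 195 to 69.2 and 79.8 (-1.36 ± 0.24). These counts differed between settings: without any 1 library 9 to 11 mitosis genes and 6 to 9 replication genes fell, under scaling by total counts 7 and 5, and in the fit of the 4 libraries 24 and 25. The call for Rrm2 ended without DMSO replicate 2 (adjusted p = 0.054) or thapsigargin replicate 1 (0.090) or 2 (0.078), and under scaling by total counts those for Uhrf1, Rrm2 and Mcm5 ended (0.051 to 0.094).

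At the entry into the cycle, 7 of 18 G1/S genes fell and 1 rose (median -1.06), against 2 to 4 and none without any 1 library and 3 and none under scaling by total counts. Ccnd1, cyclin D1, went from 274 and 277 to 30.0 and 30.3 CPM (-3.19 ± 0.30, adjusted p = 3e-06), 9.13-fold lower, and Ccne1, cyclin E1, from 36.5 in each vehicle library to 8.05 and 10.8 (-1.95 ± 0.23, adjusted p = 2.6e-05). In contrast Ccnd2, cyclin D2, was 80.5 and 81.9 against 183 and 169 CPM (1.11 ± 0.30). The inhibitor gene Cdkn2c fell (-1.799 ± 0.53), and the calls for Cdkn2c and Ccnd2 both ended without any 1 library (adjusted p of 0.13 to 0.24 and 0.086 to 0.16). In the p53 and GADD45 list of 18 genes 6 rose and 1 fell, against 3 and none without any 1 library or under scaling by total counts and 3 and 1 with the replicate block, led by Gadd45a from 10.4 and 11.6 to 128 and 117 CPM (3.48 ± 0.35) and the kinase Plk2 from 143 and 144 to 903 and 875 (2.63 ± 0.33). Cdkn1a, the p53 target encoding p21, was 108 and 101 against 126 and 129 CPM and did not pass (0.28 ± 0.28, adjusted p = 0.651). The promoter motifs of cell cycle genes were common in these lists: the E2F motif TTTNNCGC stood in 12 of 21 replication genes with an entry, against 9.18% of tested genes and 5.17% of all promoters, and the cell cycle homology region TTTGAA in 15 of 21 mitosis genes, against 14.7% of tested genes and 17.9% of all promoters.

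The BCL2 family and death receptors split in direction, with 3 of 16 higher and 4 lower (median -0.11), against none higher and 1 or 2 lower without any 1 library. Bbc3, encoding the death activator PUMA, rose from 11.0 and 12.3 to 25.2 and 30.1 CPM (1.25 ± 0.32) and Fas by 1.13 ± 0.27, beside Tnfrsf10b. Bmf fell from 5.15 and 3.51 to 1.02 and 0.555 CPM (-2.46 ± 0.71), as did Bok (-1.88 ± 0.45) and Bcl2l11, encoding BIM (-1.19 ± 0.28), and the survival gene Bcl2l1 also fell (-0.91 ± 0.17, chosen after its value was seen). Activators of death thus stood on both sides. The calls for Bbc3, Fas, Bmf and Bcl2l11 were each lost with any 1 library left out (adjusted p of 0.052 to 0.26), and that for Bok without DMSO replicate 1 (0.056) or thapsigargin replicate 1 (0.12) or 2 (0.061).

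Many genes of the extracellular matrix fell. Of 17 collagen chains 12 fell and none rose (median -1.25). The 3 chains of collagen VI, the microfibril collagen around muscle fibres, fell most: Col6a1 from 148 and 133 to 8.56 and 11.1 CPM (-3.83 ± 0.26, adjusted p = 2.7e-07), Col6a2 from 38.8 and 36.0 to 4.23 and 5.83 (-2.89 ± 0.31) and Col6a3 from 820 and 819 to 109 and 143 (-2.70 ± 0.33). Of the fibrillar type I pair, Col1a1 fell (-1.72 ± 0.38) and Col1a2, at 1261 and 1195 against 916 and 1024 CPM, did not pass (-0.34 ± 0.31, adjusted p = 0.615). Col1a1 was named after its value was seen. Without any 1 library 7 to 10 chains fell, and 7 under scaling by total counts. Among 16 collagen-modifying enzymes 6 fell and 2 rose (3 to 5 and 1 without any 1 library). The crosslinking oxidases Loxl2 (35.9 and 33.3 to 7.29 and 4.72 CPM, -2.53 ± 0.31), Lox (1112 and 991 to 198 and 184, -2.46 ± 0.52) and Loxl3 (-1.95 ± 0.22) fell, while P3h1, a prolyl hydroxylase of the ER (40.9 and 38.7 to 151 and 174, 2.03 ± 0.18), and Serpinh1, the collagen chaperone HSP47 (1.02 ± 0.25), rose. The enzymes that fell most act outside the cell and those that rose act within the ER. Lox lost its call without thapsigargin replicate 1 (0.051) or 2 (0.059) and Serpinh1 without any 1 library (0.051 to 0.12).

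Of 19 matricellular and matrix glycoproteins 7 fell and none rose (median -1.05), against 4 without any 1 library or under scaling by total counts, and 13 lower and 3 higher with the 4 libraries alone. Thbs1, thrombospondin 1, an activator of latent TGF-beta, went from 894 and 873 to 28.5 and 34.0 CPM (log2 -4.82 ± 0.67, adjusted p = 0.00012). Fbln2, fibulin 2, went from 400 and 406 to 30.3 and 38.4 CPM (-3.55 ± 0.21, adjusted p = 5.3e-08) and Thbs2 from 187 and 183 to 31.9 and 38.4 (-2.40 ± 0.33). The chemokine Cxcl12 fell from 343 and 335 to 17.6 and 19.3 CPM (-4.20 ± 0.37), and Mgp, the matrix Gla protein, from 69.9 and 60.4 to 2.70 and 2.27 (-4.71 ± 0.48). These genes were abundant in vehicle and low in both drug libraries. Olfml3, a secreted olfactomedin-like protein, fell from 85.5 and 76.8 to 2.04 and 3.84 CPM (-4.78 ± 0.31), and Angpt1, the ligand of the endothelial receptor TIE2, from 57.6 and 58.4 to 1.17 and 1.34 (-5.52 ± 0.45). Among genes that passed and averaged 5 CPM or more, clone names and pseudogenes aside, Nptx1, a pentraxin, fell most. It went from 66.4 and 67.3 to 0.764 and 1.25 CPM (-6.04 ± 0.31, adjusted p = 8.1e-09), followed by Ranbp3l from 44.5 and 43.6 to 0.764 and 0.878 (-5.74 ± 0.41). Csf2rb, a cytokine receptor subunit with a near-identical neighbour that could share reads (-5.45 ± 0.43), Gprin3 (-4.63 ± 0.81) and the small GTPase gene Rab7b (-4.40 ± 0.37) made up the rest of the 12 largest falls together with Il33 and Egr1. Of 11 YAP-TEAD targets Ccn2 (-2.54 ± 0.25) and Axl (-1.27 ± 0.26, adjusted p = 0.0037, and 0.060 without thapsigargin replicate 1) fell, and 9 did not pass.

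Some growth factor genes fell, while most did not pass. Among 23 ligands 6 fell and 2 rose, the risers being Fgf21 and Gdf15, and 2 to 4 fell without any 1 library. Pdgfb went from 5.88 and 4.70 to 1.17 and 1.16 CPM (-2.18 ± 0.29), Tgfb3 from 43.6 and 36.1 to 10.6 and 11.0 (-1.89 ± 0.19) and Bmp4 from 14.0 and 12.3 to 3.21 and 4.35 (-1.797 ± 0.38, adjusted p = 0.0045, and 0.078 without thapsigargin replicate 1). Of 19 receptors 3 fell and 1 rose, and 1 fell and none rose without any 1 library. Pdgfrb fell from 294 and 287 to 47.4 and 63.9 CPM (-2.38 ± 0.22), and Met (-1.01 ± 0.24) and Erbb2 (-0.69 ± 0.21) also fell. The collagen receptor Ddr2 rose (1.51 ± 0.47). The calls for Met, Erbb2 and Ddr2 were each lost with any 1 library left out (0.051 to 0.27). Of 12 lipoprotein receptors Lrp1 fell from 1810 and 1790 to 347 and 402 CPM (-2.26 ± 0.24, adjusted p = 9.2e-06), while Lrp2 rose from 0.487 and 0.323 to 3.16 and 3.10 (2.93 ± 0.46), beside Vldlr.

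The early growth response genes were among the most reduced. Egr1, an immediate early transcription factor, stood at 119.5 and 119.7 CPM in DMSO and at 4.64 and 4.39 in drug (log2 -4.73 ± 0.63, adjusted p = 9.4e-05). Egr2 went from 8.64 and 10.3 to 0.204 and 0.277 CPM (-5.27 ± 0.61) and Egr3 from 8.88 and 9.50 to 0.510 and 0.277 (-4.54 ± 0.65). All 3 were more than 20 times lower in the drug libraries, with no overlap. In the list of 22 immediate early genes they and Nr4a1 (-1.78 ± 0.44, chosen after its value was seen) fell, Ier3 rose (0.81 ± 0.21, lost without any 1 library at 0.11 to 0.15) and 17 did not pass, Fos (-1.71 ± 0.82) and Jun (-0.64 ± 0.45) among them. Clock genes divided as well: of 17, Nfil3 (15.6 and 13.8 to 95.1 and 111 CPM, 2.81 ± 0.29), Ciart (2.43 ± 0.38) and Cry2 (1.53 ± 0.23) rose and 6 fell, with a median of -0.01 and 3 or 4 falling without any 1 library. Per3 (23.0 and 22.6 to 5.30 and 5.36 CPM, -2.09 ± 0.35), Hlf (-2.06 ± 0.34) and Dbp (-1.87 ± 0.33) fell most. Nfil3 and the Dbp and Hlf proteins bind the same DNA element, as repressor and as activators.

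Markers of muscle identity moved in opposite directions. Myod1, the myogenic master factor, went from 15 and 13.84 to 4.38 and 5.69 CPM (-1.52 ± 0.30, adjusted p = 0.0026, and 0.062 without thapsigargin replicate 1). Vehicle levels of Myod1 were 212 ± 11.9 CPM at 2 h and 101 ± 12.0 at 6 h (SD, n = 3 each), far above those at 12 h. At 6 h the drug difference of Myod1 did not pass (-0.23 ± 0.23, adjusted p = 0.55). Myf5, a relative of Myod1, went from 28.0 and 28.6 to 219 and 216 CPM at 12 h (2.94 ± 0.52, adjusted p = 0.0011). Myog, the factor of terminal differentiation, was 1.34 and 2.35 against 3.21 and 3.33 CPM and did not pass (0.83 ± 0.36, adjusted p = 0.16). In the list of 17 myogenic factors 2 rose and 5 fell (1 and 2 or 3 without any 1 library), among them Msc (-3.19 ± 0.56), with Hey1 rising (1.44 ± 0.38, lost without any 1 library at 0.076 to 0.20). Of 10 myoblast markers, Vim fell from 4370 and 4450 to 1309 and 1429 CPM (-1.69 ± 0.31) as did Cav1 (-1.98 ± 0.50, 0.064 to 0.13 without any 1 library), while Des, at 402 and 377 against 344 and 395 CPM, overlapped between groups. Of 24 sarcomere and fusion genes 5 fell and 2 rose, and 9 fell under scaling by total counts. Myl1 fell from 6.77 and 6.60 to 1.07 and 1.25 CPM (-2.52 ± 0.36), Actc1 had 30 counts in DMSO and 2 in drug, a ratio of 13.4 with an interval of 3.39 to 115, and Myh7, the slow myosin heavy chain, had no count in DMSO and 1.89 and 1.99 CPM in drug, at least 14.9-fold higher. Myh1 was at least 2.98-fold lower, with no count in drug and a call that ended without DMSO replicate 1 (0.13). Actn2, with no count in DMSO and 10 in drug, was at least 1.91-fold higher, and its call ended without DMSO replicate 1 (0.066), DMSO replicate 2 (0.054) or thapsigargin replicate 1 (0.10).

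Some markers of other cell types rose, at low levels except for Lpl. Of 9 epithelial markers 7 were tested and 2 rose, Grhl2 from 0.203 and 0.231 to 3.11 and 3.33 CPM (3.87 ± 0.86) and Esrp1 from no count to 19 counts, at least 3.49-fold, while the summed level of the list was 19.7 and 18.9 CPM in DMSO and 14.3 and 16.4 in drug. Of 7 endothelial markers 4 were tested and 2 rose, Vwf from 0.365 and 0.507 to 9.99 and 10.8 CPM (4.57 ± 0.67) and Tek (1.98 ± 0.61), with summed levels of 0.892 and 1.34 against 12.2 and 13.0. Pecam1 and Cdh5, which define endothelium, had no count in DMSO and stayed below 0.4 CPM in drug. None of the 4 macrophage markers tested passed (none at an unadjusted p under 0.05 and none by DESeq2). The macrophage list summed to 25.86 and 25.14 CPM in DMSO and 28.28 and 33.29 in drug, mostly from Cd14. Of 5 adipocyte markers tested, Lpl (1.68 ± 0.28) and Cd36 (1 count in DMSO and 31 in drug, ratio 34.8, 5.81 to 1420) rose and Cebpa fell, and the list summed to 62.4 and 68.4 against 138 and 131 CPM. Of 7 osteoblast markers Alpl rose, from no count to 16 counts, and Spp1 (-1.69 ± 0.47) and Phex (-1.15 ± 0.36) fell. Their list summed to 2737 and 2808 CPM in DMSO and 908 and 877 in drug, nearly all from Spp1. Of the lineage's transcription factors, Sp7 stayed below 0.3 CPM. Runx2 was present at 69.08 and 70.29 CPM in DMSO and 55.24 and 54.42 in drug, and did not pass. The part of other cell types in the results above was not tested. Calls that ended without 1 library were those of Grhl2 (DMSO replicate 1, 0.086, or 2, 0.070), Cd36 (DMSO replicate 1, 0.11), and Esrp1, Tek, Spp1, Alpl and Phex (any of the 4, 0.053 to 0.31).

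Lists of housekeeping complexes held no call in the fit of all libraries. Among 26 proteasome subunits, 30 nuclear subunits of oxidative phosphorylation, 35 cytosolic ribosomal proteins and 13 mitochondrially encoded mRNAs edgeR called none. At an unadjusted p under 0.05 these lists held 1, 2, 0 and 0 genes, all lower, and DESeq2 called 1, 1, 0 and 0. The fit of the 4 libraries alone did call members: 3 proteasome genes higher and 7 lower, 3 oxidative phosphorylation genes higher and 13 lower, 5 mitochondrial mRNAs lower, and 30 ribosomal protein genes higher and 1 lower. The median of the ribosomal list was 0.37 there and 0.34 in the fit of all libraries.

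Stress, metabolic and growth control lists held calls in part, beside 6.29% higher and 6.77% lower among all genes tested. Heat shock proteins (none higher, 6.25% lower) and glycolysis and hypoxia genes (4.17% and 8.33%) lay near or below those shares. Translation initiation factors gave 9.52% higher and none lower. The share lower exceeded that of all genes for cholesterol and fatty acid synthesis and for mTORC1 brakes (33.3%). Whether any of these lists differed from all genes was not tested. Of 16 cytosolic heat shock proteins Hspa1b fell (-1.36 ± 0.44), with a near-identical partner gene and a call that ended without any 1 library (0.12 to 0.35). Of 24 glycolysis and hypoxia genes Ndrg1 rose from 75.3 and 75.9 to 470 and 468 CPM (2.63 ± 0.47), and Hk1 (-0.85 ± 0.17) and Pfkm (-1.11 ± 0.25) fell, both without a call when thapsigargin replicate 1 was left out (0.069 and 0.096) and Pfkm also without DMSO replicate 2 (0.052). Of 30 genes of cholesterol and fatty acid synthesis 6 fell and none rose, for example Acat2 (-1.49 ± 0.32, 0.050 and 0.055 without thapsigargin replicate 1 or 2) and Dhcr7 (-1.35 ± 0.26, 0.083 under scaling by total counts). In that list 1 to 4 fell without any 1 library, 2 fell under scaling by total counts, and the 4 libraries alone gave 4 higher and 21 lower. In the list of 12 mTORC1 brakes Sesn2 rose and 4 fell (1 to 3 without any 1 library), Deptor from 83.8 and 75.0 to 31.3 and 23.6 CPM (-1.53 ± 0.31, 0.059 without thapsigargin replicate 2), Castor2 (-1.36 ± 0.27), Sesn1 (-1.14 ± 0.32, lost without any 1 library at 0.13 to 0.18) and Eif4ebp2 (-0.81 ± 0.18, chosen after its value was seen). Of 21 translation initiation factors Eif3c (0.98 ± 0.18) and Eif1a (1.06 ± 0.29, lost without any 1 library at 0.071 to 0.18) rose.

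**Figure D3:**
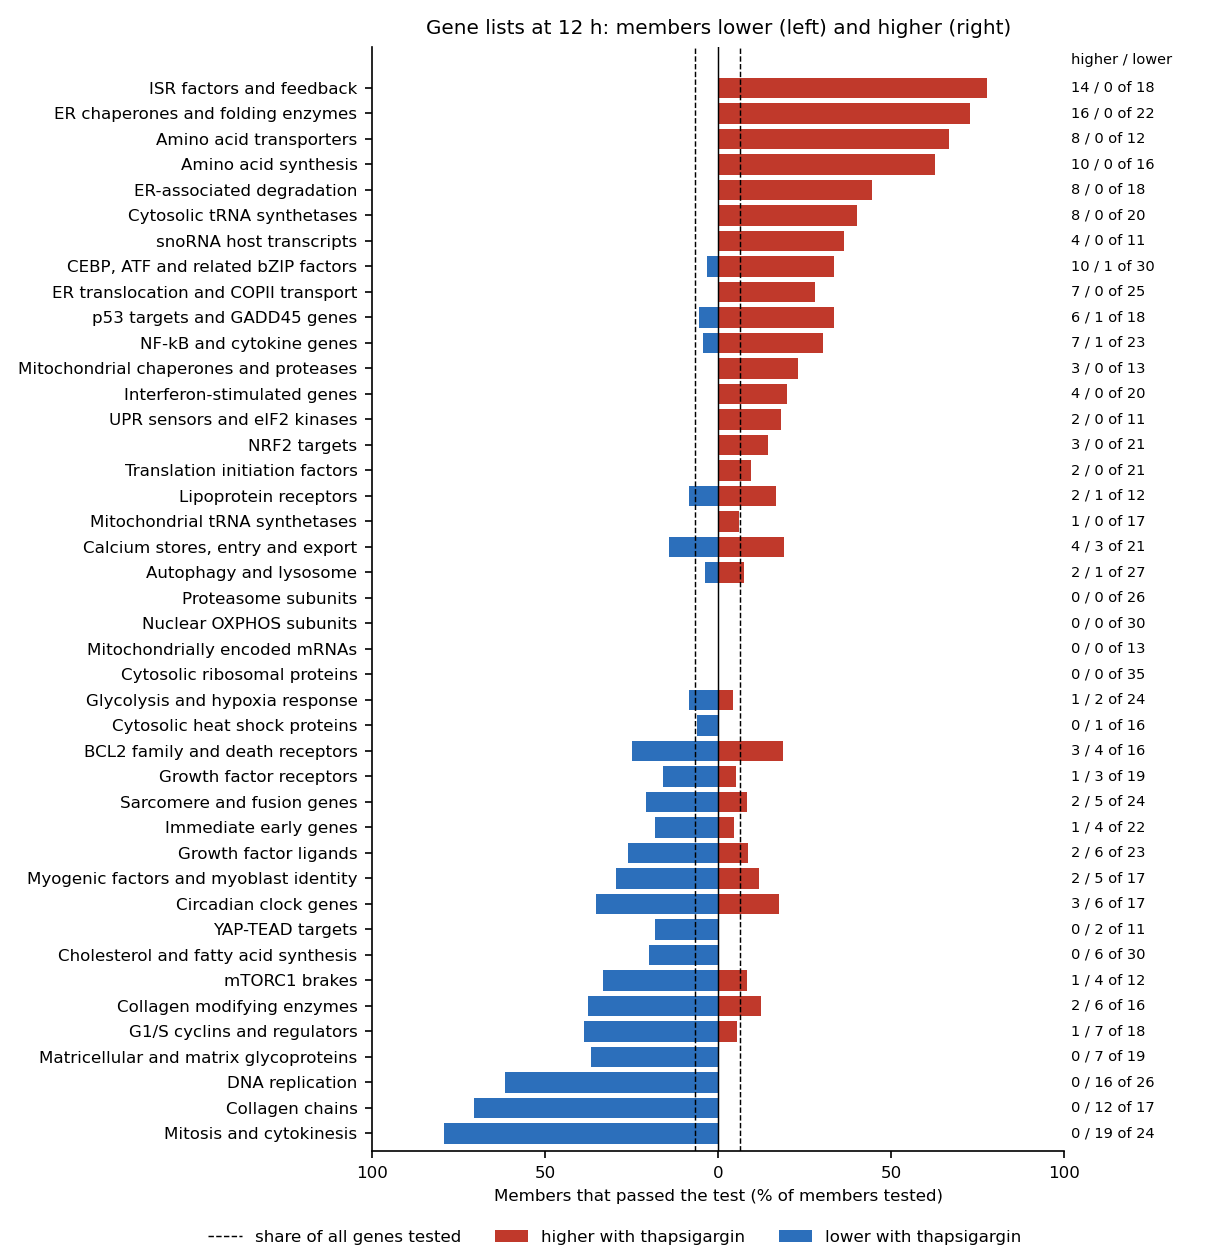
Share of tested members of each gene list that passed at 12 h (% of members tested), higher in thapsigargin to the right and lower to the left, with the counts at the edge and dashed lines at the shares of all genes tested (6.29% higher, 6.77% lower). The ISR, ER folding and amino acid lists lie furthest right and mitosis, collagen and DNA replication furthest left.

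The responses at 12 h and 6 h, which share no library, were set against each other to ask what the longer exposure added. At 6 h 3926 genes passed (21.8%), 2341 higher (13.0%) and 1585 lower (8.79%). Groups at 2 h and 6 h held 3 libraries each, with more reads, and those at 12 h held 2. Numbers of calls, and shares of them, therefore cannot be compared directly between hours. Of the 2356 genes called at 12 h, 1720 were called in the same direction at 6 h (73.0% of the calls at 12 h and 43.8% of those at 6 h), and 15 in the opposite one. The difference between the responses passed for 103 genes (0.571%), 7 of them higher (0.0388%) and 96 lower (0.532%) at 12 h, and 1435 at an unadjusted p under 0.05. Of the 96, 73 were themselves called lower at 12 h, 8 higher and 15 not called. The count was 12 to 104 without any 1 library, lowest without thapsigargin 12 h replicate 1, and the other libraries of 12 h also cut it (19 without thapsigargin replicate 2, 38 and 35 without DMSO replicate 1 or 2). It was 30 under scaling by total counts, which moved the median difference of all genes from -0.04 to -0.16. Vehicle cells themselves differed between these hours: 6393 genes passed between DMSO at 12 h and at 6 h (35.4%), and time in culture and the set of libraries cannot be told apart there.

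Genes that stood further up at 12 h were few. Myom2, a protein of the sarcomere's M-band, rose by 4.198 ± 0.21 at 12 h (9.08 and 10.2 to 177 and 176 CPM) and by 1.97 at 6 h, a difference of 2.23 ± 0.25 (adjusted p = 0.0003). For Avil the difference was 2.12 ± 0.37 (adjusted p = 0.012). Gpr137b, a lysosomal membrane protein with a pseudogene copy, went from 35.5 and 35.2 to 140 and 136 CPM at 12 h, against 49.9 ± 1.86 and 65.9 ± 2.33 at 6 h (SD, n = 3 each), a difference of 1.56 ± 0.21 (adjusted p = 0.0023). G6pdx, the entry enzyme of the pentose phosphate pathway, was 133 and 137 against 172 and 179 CPM at 12 h without passing (0.38 ± 0.17, adjusted p = 0.19) and fell at 6 h (-0.77), a difference of 1.15 ± 0.23 (adjusted p = 0.025). All 4 ended under scaling by total counts (adjusted p of 0.071 to 0.74). Without a library of 12 h the difference for Avil ended for DMSO replicate 1 (0.13) and thapsigargin replicates 1 (0.086) and 2 (0.077), and that for G6pdx for each of the 4 (0.17 to 0.25) and for 4 of the 6 libraries at 6 h (0.064 to 0.080: DMSO replicates 1 and 2, thapsigargin replicates 2 and 3).

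Among genes that stood lower at 12 h than at 6 h, several had very different levels in the vehicle. Kif26b, a kinesin-like protein, had 38.6 and 36.3 CPM in DMSO at 12 h and 2.04 and 2.82 in drug (-3.94 ± 0.29), but 1.34 ± 0.32 and 4.73 ± 0.69 CPM at 6 h (1.82, higher in drug), a difference of -5.76 ± 0.37 (adjusted p = 8.3e-07). Ranbp3l fell at both hours, by far more at 12 h (difference -4.59 ± 0.48, adjusted p = 0.0003), where its DMSO level was 44.5 and 43.6 CPM against 1.48 ± 0.26 at 6 h. The complement gene C3 was 207 and 184 against 134 and 147 CPM at 12 h without passing (-0.48 ± 0.48), and 0.0515 ± 0.0474 against 0.994 ± 0.105 CPM at 6 h (difference -4.56 ± 0.85, adjusted p = 0.018). For Tpsab1, a mast cell tryptase gene with close relatives, both hours gave higher levels in drug, 6.31-fold at 12 h from 4.14 and 4.80 CPM in DMSO, and from 0.221 ± 0.148 at 6 h (difference -3.85 ± 0.63). Smad9, a transducer of BMP signals, was 2.55 and 3.04 against 5.147 and 6.195 CPM at 12 h without passing, and 0.832 ± 0.305 against 19.8 ± 5.58 at 6 h (difference -3.54 ± 0.51, adjusted p = 0.0032). In Kif26b, Ranbp3l, C3 and Tpsab1 the vehicle level at 12 h was more than 10 times that at 6 h. The difference for C3 ended without any 1 library of 12 h (0.063 to 0.16), without DMSO 6 h replicate 1 (0.073) and under scaling by total counts (0.061), that for Tpsab1 without thapsigargin 12 h replicate 1 (0.098) or 2 (0.077), and that for Smad9 without thapsigargin 12 h replicate 1 (0.062).

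**Figure D4:**
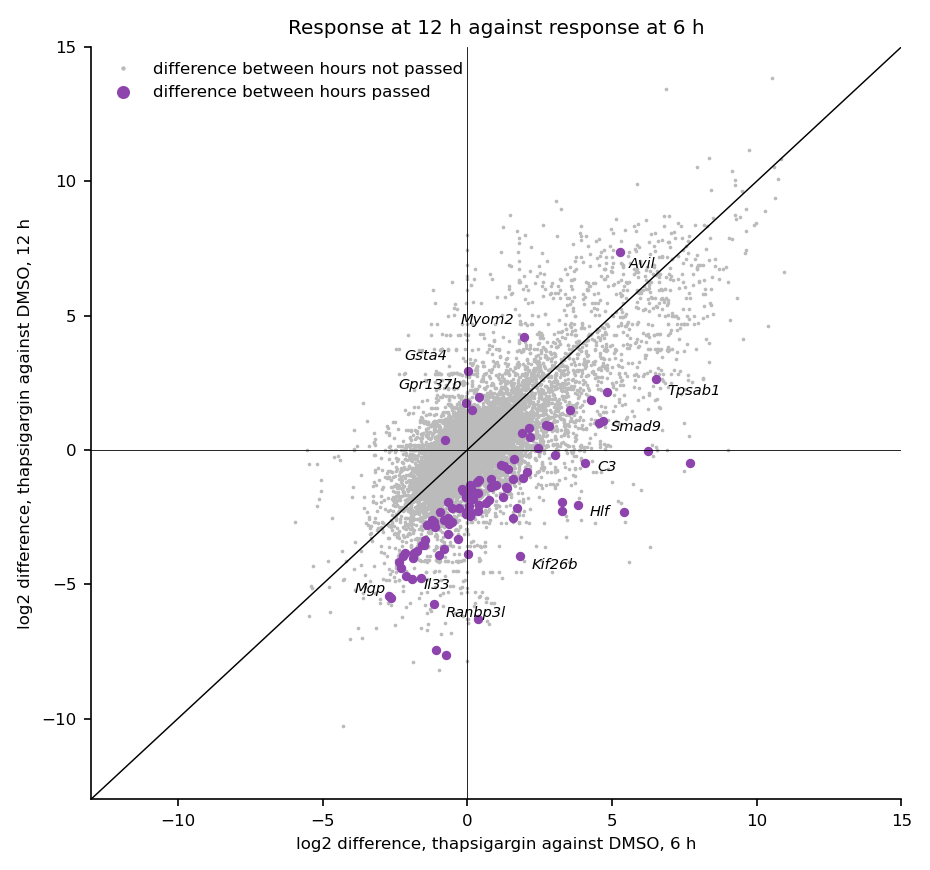
Fitted log2 difference between thapsigargin and DMSO at 12 h (vertical) against that at 6 h (horizontal) for the genes tested, with the line of equality. The 103 genes whose responses differed between the hours are purple and lie mostly below the line, as Kif26b does at -3.94 and 1.82. Values of genes with no count in a group depend on the fit.

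Set against 2 h, where 816 genes passed (4.52%, with 3.01% higher and 1.51% lower), the response at 12 h differed for 916 genes (5.08%), 347 higher (1.92%) and 569 lower (3.15%), and for 2804 at an unadjusted p under 0.05. Of the calls at 12 h, 340 were also called in the same direction at 2 h (14.4% of the calls at 12 h and 41.7% of those at 2 h) and 39 in the opposite one. Egr1 was higher in drug at 2 h (log2 2.82) and lower at 12 h, a difference of -7.55 ± 0.79 (adjusted p = 3.2e-05), and Egr2 (-7.22 ± 0.72) and Egr3 (-6.13 ± 0.77) crossed in the same way. Tcim, a small regulator of transcription, rose at 2 h (3.37) and fell at 12 h from 9.69 in each vehicle library to 1.94 and 1.53 CPM (difference -5.86 ± 0.38, adjusted p = 2.6e-07), and Nptx1 fell by far more at 12 h (difference -5.28 ± 0.34). On the other side, Avil (7.08 ± 0.40), Car6 (6.54 ± 1.04), Tfcp2l1 (5.68 ± 1.04), Atp2a3 (5.67 ± 0.60) and Myom2 (4.38 ± 0.25) had responses that were larger at 12 h. Among the panel, the difference between 12 h and 2 h passed upward for Hspa5 (2.09, adjusted p = 0.03), Asns (1.24, 0.016), Slc7a11 (3.02, 0.003), Ppp1r15a (2.21, 0.025), Fgf21 (3.61, 0.0059), Atp2a2 (1.54, 0.044) and Tnfrsf10b (1.47, 0.0091). It passed downward for Chac1 (-3.32, 0.0009), Trib3 (-1.64, 0.035), Sesn2 (-1.53, 0.0019) and Ccnd1 (-2.58, 0.00046). The count was 370 to 1067 without any 1 library, at 370 to 409 without a library of 12 h and at 576 to 597 without a thapsigargin library of 2 h, and it was 478 under scaling by total counts.

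The lists took different courses over the hours. The median log2 difference of ER chaperones was 0.27 at 2 h, 1.27 at 6 h and 1.91 at 12 h, with 4, 14 and 16 of 22 genes higher, while the ISR list held medians of 2.02, 2.10 and 2.06 with 14, 17 and 14 of 18 higher. Mitosis genes went from -0.23 to -0.64 and -1.32, with 0, 11 and 19 of 24 lower, and DNA replication genes from -0.11 to -0.66 and -1.17, with 0, 12 and 16 of 26 lower. Immediate early genes began at 1.43 with 11 of 22 higher and ended at -0.37 with 1 higher and 4 lower. Clock genes began at 0.87 and ended at -0.01. The numbers called rest on 3 libraries per group at 2 h and 6 h and on 2 at 12 h, so they are not directly comparable. No gene of the ISR, ER chaperone, mitosis or replication lists passed the test of the difference between 12 h and 6 h, so the steps between these hours are described here and not tested as lists.

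**Figure D5:**
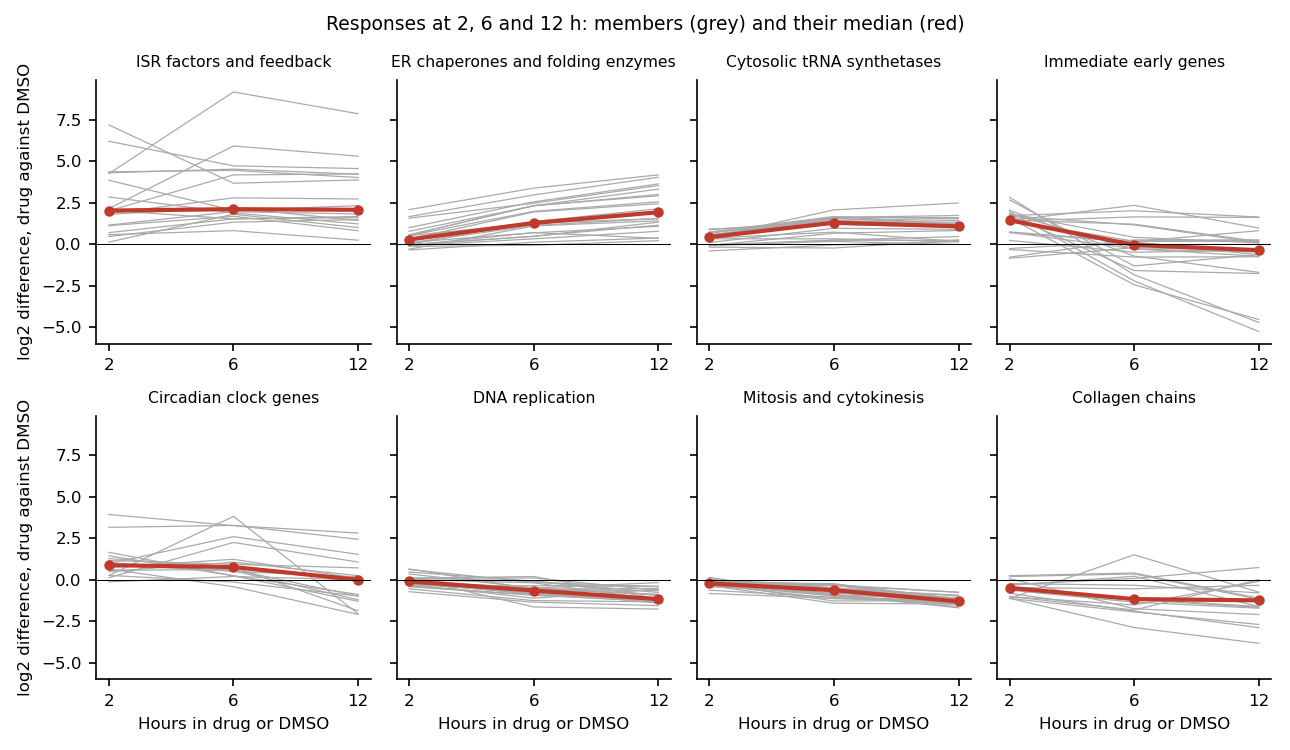
Fitted log2 difference between thapsigargin and DMSO at 2, 6 and 12 h for the tested members of 8 lists (grey lines) and their median (red). The ER chaperone median climbs from 0.27 to 1.91 and the mitosis median sinks from -0.23 to -1.32, while the ISR median stays between 2.02 and 2.10.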

How the data were processed

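Counts per gene were analysed for 19 libraries of C2C12 cells, with 4 at 12 h. Per the submitters' processing notes, the authors trimmed reads with Trim Galore, aligned them with STAR 2.5.3a to mm10, and also used bedtools 2.31.0 and DESeq2. The deposited files hold raw counts as whole numbers. Neither the counting program nor its strand setting or annotation was found: these were not given in the sources used here. Reads of overlapping and antisense genes therefore cannot be told apart. Lines of unassigned reads (15.8% to 16.3% at 12 h) were left out. Of 55401 identifiers, 55141 matched GENCODE M21 on GRCm38, the assembly of mm10.

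Tests used edgeR 4.0.16 in R 4.3.3: TMM scaling, filterByExpr by group, 1 quasi-likelihood model of 7 group means over all 19 libraries, two-sided contrasts and Benjamini-Hochberg adjustment. SE is that of the fit, and CPM uses TMM-scaled totals. On simulated data (17492 genes) it called 66 of 100 genes changed 4-fold, 2 of 100 changed 2-fold and 3 of 17292 unchanged at 12 h. Every simulated library was drawn with the gene-wise spread of the fit of all 19 libraries. That spread was on the whole wider than that of the 4 libraries at 12 h, so these numbers hold for the wider spread only. Ratios on 3 or fewer counts carry 95% exact binomial intervals, which with the floor of 3 counts cover counting error only. No 2 libraries of a group were identical.

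Named genes are a panel of 24, the 12 largest rises and 12 largest falls among genes that passed, averaged 5 CPM or more and did not overlap, the 3 largest called rises and falls of each of 48 lists, and the 5 largest differences between hours in each direction (against 6 h, 4 qualified as higher). Members and lists were chosen with earlier results of these data known. Among genes chosen by that rule, 2 are not reported here. Alternatives were other scalings, DESeq2 1.42.0, no filter, other sets of libraries, transcript length offsets, a replicate block and leaving out each library.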

Additional observations from a re-analysis of the deposited data

Results flagged for a closer look

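Responses that differed between hours by a test of the difference itself are listed here, as the log2 difference at 12 h minus that at the other hour. Against 6 h, the response was higher at 12 h for Myom2 (2.23), Avil (2.12), Gpr137b (1.56) and G6pdx (1.15). It was lower for Kif26b (-5.76), Ranbp3l (-4.59), C3 (-4.56), Tpsab1 (-3.85) and Smad9 (-3.54). Among the genes with the largest falls at 12 h, the fall relative to DMSO was also larger than at 6 h for Olfml3 (-3.20 ± 0.35, adjusted p = 0.0003), Angpt1 (-2.88 ± 0.50, 0.012), Il33 (-2.87 ± 0.47, 0.0069), Csf2rb (-2.74 ± 0.50, 0.017), Mgp (-2.60 ± 0.55, 0.039) and Rab7b (-2.12 ± 0.43, 0.03). The differences of these genes from Olfml3 to Rab7b were not part of the check under alternative runs. Against 2 h, the response was higher at 12 h for Avil (7.08), Car6 (6.54), Tfcp2l1 (5.68), Atp2a3 (5.67) and Myom2 (4.38), and lower for Egr1 (-7.55), Egr2 (-7.22), Egr3 (-6.13), Tcim (-5.86) and Nptx1 (-5.28). In DMSO, Angpt1 stood at 12.2 ± 1.53 CPM at 6 h (SD, n = 3) against 57.6 and 58.4 at 12 h, and Csf2rb at 3.01 ± 1.06 against 24.04 and 20.89. Likewise in DMSO, Il33 went from 49.2 ± 14.5 to 142 and 124, and Olfml3 from 29.9 ± 0.92 to 85.5 and 76.8. Rab7b went from 20.8 ± 1.62 to 38.3 and 36.0, and Mgp fell from 340 ± 106 to 69.9 and 60.4. In drug, Csf2rb was 0.451 ± 0.161 CPM at 6 h and 0.561 and 0.462 at 12 h, so it was no lower there. Mean drug levels of the others were lower at 12 h than at 6 h.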

How the results depend on the processing

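None of the 174 genes named by rule changed direction at 12 h under any alternative run. Genes described outside that rule were not part of this check, such as Des and Nqo1, whose levels overlapped between groups. The 2356 calls at 12 h became 1546 under scaling by total counts, 8847 with the 4 libraries alone, 8423 with a replicate block among those 4, 4539 without the 2 libraries of high mitochondrial share outside 12 h, and 1124 to 1211 without any 1 library. The 103 calls for 12 h against 6 h became 30 under total counts, 437 by DESeq2, 732 without the high mitochondrial pair and 12 to 104 without any 1 library. The 916 calls against 2 h became 478, 1635 and 2358 in the same settings, 3353 with the libraries of those hours alone and 370 to 1067 without any 1. The replicate block over all libraries gave 1980, 71 and 666 calls, and 13 of 174 named genes lost their call at 12 h. Deviations of libraries with the same number correlated at -0.0049 at 12 h. With 2 libraries per group both pairs give the same value by construction. The replicate numbers are thus not shown to pair the libraries. These are the labels' numbers; the deposited drug data at 12 h carry 2 and 3 where the labels give 1 and 2, which would change the pairs. Of the 174 named genes, 40 lost their call under total counts (adjusted p of 0.051 to 0.27; beside those lost without any 1 library these were Atp2a2, Axl, Dhcr7, Dnaja3, Hk1, Mcm5, Myod1, Pfkm, Rrm2, Spcs2, Srxn1, Stim2 and Uhrf1), 15 without a filter on low counts, 3 with DESeq2 size factors and 0 by DESeq2. Leaving out 1 library at 12 h ended many calls of named genes, where a lone library of a group is assumed to vary like the other groups. The smallest change called at 12 h was 1.47-fold in the fit of all libraries, smaller ones were called with the 4 libraries alone, and a gene without a call is not shown to be unchanged.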
